A study of Mus musculus with 30 samples.

Results

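Livers of PPARα-null (Null) mice given 10 mg/kg PFOS were compared with livers of Null mice given 3 mg/kg PFOS across all genes on the array. Both dose groups were taken whole from the sample labels, which made 10 of the 30 arrays of the series. The questions were whether the response without PPARα had already levelled off at 3 mg/kg, and which genes differed most among the mice at 10 mg/kg. PFOS, perfluorooctane sulfonate, is a persistent fluorinated surfactant and was given as its potassium salt in 0.5% Tween 20. Male mice aged 6 to 9 months were dosed by gavage for 7 days and RNA was taken from the left liver lobe. The Null mice were of the strain 129S4/SvJae-Pparatm1Gonz/J, in which Ppara is disrupted in the germline, and they made up groups of 5 arrays at 10, 3 and 0 mg/kg. The 0 mg/kg mice received the Tween 20 vehicle alone. A further 15 arrays came from wild-type (WT) mice of the strain 129S1/SvlmJ at the same doses, a related substrain rather than littermates of the Null mice. Animals were housed 5 per cage, and how cages were assigned to doses was not stated.

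PPARα is the nuclear receptor through which fibrates and many fluorinated surfactants switch on fatty acid oxidation in rodent liver. A response that remains without it can run through other sensors. The constitutive androstane receptor (CAR) switches on drug-metabolising genes such as Cyp2b10, and NRF2 switches on genes that detoxify reactive compounds. The liver also makes most acute-phase proteins, which follow inflammatory cytokines, and the complement and clotting factors of plasma. Interferon-stimulated genes form the antiviral programme that interferons switch on.

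Values are log2 array signals after robust multichip averaging (RMA), so a difference of 1 is a doubling of signal. Two-sided p-values came from limma models fitted over 12156 genes, and adjusted p-values are Benjamini-Hochberg values over all probe sets kept. Null 3 mg/kg replicates 1 and 2 were closer to each other than any other pair of 1 group on the measures that vary between mice. Just 1 of 24069 probe sets differed more than 2-fold between them, against 36 to 1618 in the other 59 pairs of the same group. Over the 200 probe sets that varied most between mice, their root mean square difference was 0.205, against 0.616 to 1.94 in the other pairs. On steady probe sets they were no closer than other pairs (0.137, against 0.117 to 0.339), and their correlation was not the highest. Their labels name them as biological replicates 1 and 2, and the study describes 5 individual animals in each dose group. Since these 2 arrays differed by so little on the variable probe sets, they were still counted as 1 sample, their mean. This left n = 5 at 10 mg/kg, 4 at 3 mg/kg and 5 at 0 mg/kg in Null liver. Values at or below the median of all signals, the limit used to retain probe sets, are near background, and no order is read among them. Below, values are listed for replicates 1 to 5 at 10 mg/kg, and at 3 mg/kg for the mean of replicates 1 and 2 and then replicates 3, 4 and 5.

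Ppara itself was still read by its 3 probe sets in Null liver, at a mean of 9.21 ± 0.27 at 10 mg/kg (SD, n = 5), 9.37 ± 0.13 at 3 mg/kg (n = 4) and 9.59 ± 0.19 at 0 mg/kg (n = 5). WT liver read 10.3 ± 0.33 at 10 mg/kg and 10.2 ± 0.19 at 3 mg/kg (n = 5 each). Clta and Rtn4, a pair of genes that separate the strains, lay on the Null side in all 14 Null samples. The arrays labelled WT 0 mg/kg replicates 4 and 5 went against their labels. Their Clta values of 10.43 and 10.39 were inside the Null range of 10.31 to 10.86 and outside the 8.08 to 8.21 of the other WT 0 mg/kg arrays, and their Cyp2b10 values of 13.04 and 12.99 lay within the Null 10 mg/kg range of 12.02 to 13.37, against 8.11 to 8.43 in the other WT 0 mg/kg arrays. They enter no comparison within Null liver, and the comparisons with WT are given with and without them.

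Array Null 10 mg/kg replicate 1 stood apart from its group. Its mean correlation with the other 4 arrays was 0.966, against 0.978 to 0.984 for those. It was farthest from the group median for 38.3% of genes, and 417 genes read more than 2-fold below all the other mice of the group, against 9 to 59 genes in each of the others. At 3 mg/kg, replicate 4 was the farthest from its group median, for 37.8% of genes. By root mean square distance over all probe sets kept, none of the 5 Null 10 mg/kg samples had another Null 10 mg/kg sample as its nearest. Replicates 2, 3 and 4 were nearest to a Null 3 mg/kg sample, replicate 1 to WT 10 mg/kg replicate 2 and replicate 5 to the array labelled WT 0 mg/kg replicate 5, whereas every Null 0 mg/kg sample was nearest to another of its own group. The causes were not tested, and results that rest on replicate 1 are given without it as well.

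No gene passed an adjusted p of 0.05 between Null 10 and Null 3 mg/kg in limma (0 of 12156, 0%; lowest adjusted p = 0.739). At an unadjusted p under 0.05, 1058 genes (8.7%) differed, 412 higher (3.39%) and 646 lower (5.31%) at 10 mg/kg. Without Null 10 mg/kg replicate 1 the number was 830 (6.83%), and again none passed the adjusted threshold. At the limit of p of at most 0.0025 named in the study's methods there were 40 genes (0.329%), of which 7 were higher (0.0576%), 33 were lower (0.271%) and 9 differed by 1.5-fold or more. The arrays of the 2 doses did not overlap for 231 genes (1.9%), 90 higher (0.74%) and 141 lower (1.16%) at 10 mg/kg. Against vehicle, adjusted p-values under 0.05 were reached by 1071 genes (8.81%) at 10 mg/kg and by 305 genes (2.51%) at 3 mg/kg, with the same 5 vehicle livers in both comparisons. With 5 samples at 10 mg/kg and 4 at 3 mg/kg, these counts do not by themselves compare the size of the responses. Split by direction, 10 mg/kg gave 489 higher (4.02%) and 582 lower genes (4.79%), and 3 mg/kg gave 113 higher (0.93%) and 192 lower genes (1.58%).

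To ask about a plateau, 1263 responding genes (10.4%) were taken as those whose average over both doses differed from vehicle at an adjusted p under 0.05. The doses were weighted by their samples in this average, so that 10 mg/kg (n = 5) counted for more than 3 mg/kg (n = 4). Of the 1263 genes, 577 were higher (4.75%) and 686 lower (5.64%) with PFOS. Among the higher genes the median difference from vehicle was 0.43 at 10 mg/kg, beside 0.37 at 3 mg/kg, and among the lower genes it was -0.38 at 10 mg/kg, beside -0.35 at 3 mg/kg. The response was larger at 10 than at 3 mg/kg for 816 genes (64.6%), by a median of 0.05, while 58.2% of all genes lay farther from vehicle at 10 mg/kg by a median of 0.03. Mice spread more at 10 mg/kg (median standard deviation 0.175, beside 0.127 at 3 mg/kg). With unequal spread, taking genes and sign from these same samples favours a larger response at 10 mg/kg, in these shares and in those below. The size of this effect was not tested. For 1094 responding genes (86.6%) the 95% interval of the step lay wholly within 1.5-fold in either direction, against 88.9% of all genes, and for none did it lie wholly outside. Of the 47 genes with an average response of at least 2-fold, 34 (72.3%) were larger at 10 mg/kg, by a median of 0.31, and for just 4 of these 47 did the interval lie within 1.5-fold. Without Null 10 mg/kg replicate 1 the larger share was 24 of 43 (55.8%) and the median step 0.05. The change lay in the higher genes, of which 22 of 34 were larger by a median of 0.26 with this mouse and 16 of 32 (50%) without it. Of the lower genes, 12 of 13 were larger by a median of 0.52 with it, and 8 of 11 (72.7%) by 0.38 without it.

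**Figure D1:**
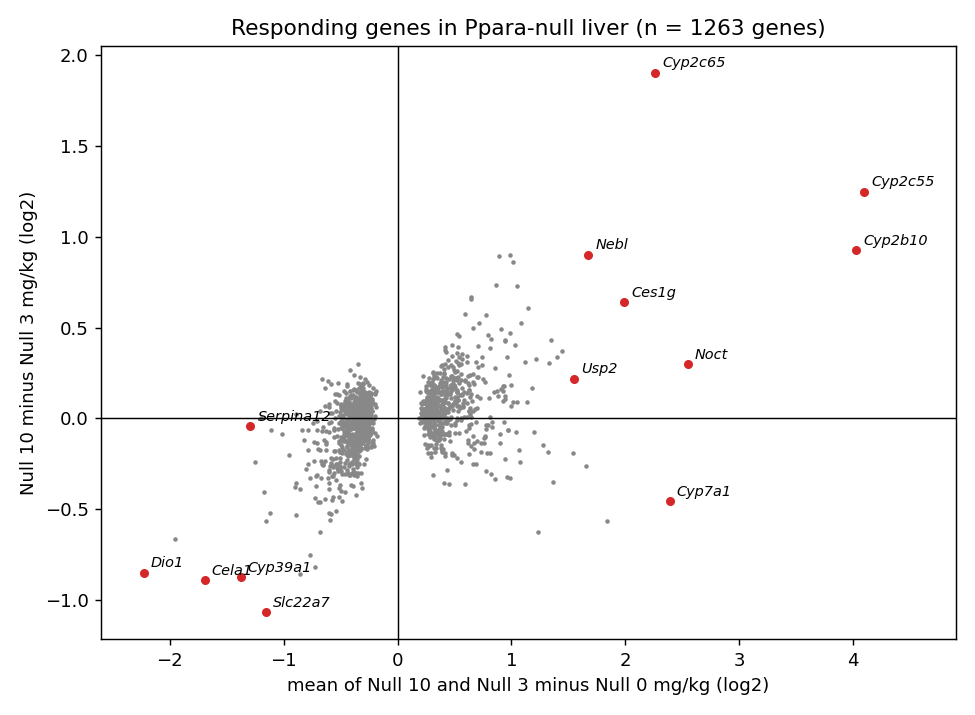
Each point is 1 of the 1263 responding genes in Null liver, with the average response of both PFOS doses minus 0 mg/kg on the x axis and the 10 minus 3 mg/kg step on the y axis, both in log2 units. Most points lie close to a step of 0, and the labelled genes, in red, include the strongest responders (Cyp2c55, Cyp2b10, Cyp7a1, Dio1).

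The mean of all 577 responding-higher genes put the mice in view: 8.70, 8.59, 8.43, 8.53 and 8.58 at 10 mg/kg, 8.47, 8.48, 8.45 and 8.53 at 3 mg/kg, and at most 8.04 at 0 mg/kg. The treated groups overlapped each other, with replicate 3 of the higher dose the lowest treated mouse. That both were clear of vehicle follows from how the genes were chosen, and the same holds for the responding-lower genes. The 686 responding-lower genes averaged 8.79, 8.86, 8.84, 8.76 and 8.72 at 10 mg/kg, 8.85, 8.96, 8.78 and 8.84 at 3 mg/kg, and 9.16 to 9.29 at 0 mg/kg, again with overlap between the PFOS doses.

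Cyp2c55, Cyp2b10, Noct and Cyp7a1 had the largest average responses among the higher genes. Cyp2b10, the cytochrome P450 used as the marker of CAR, read 13.04, 13.37, 12.02, 12.03 and 12.98 at 10 mg/kg and 11.71, 12.73, 10.65 and 11.96 at 3 mg/kg, against 7.01 to 9.05 at 0 mg/kg. Replicates 3 and 4 at the higher dose lay within the range of the lower dose and the other 3 mice lay above it. Cyp2b10 exceeded vehicle by 4.44 at 10 mg/kg (limma adjusted p = 0.000136) and by 3.51 at 3 mg/kg (limma adjusted p = 0.00407). The step between the doses was 0.92 ± 0.44 (SE). Cyp2c55, a P450 also inducible through CAR, read 12.09, 12.56, 10.59, 9.10 and 12.44 at 10 mg/kg and 10.08, 11.32, 8.73 and 10.30 at 3 mg/kg. The same 3 mice were highest, and the step of 1.25 had a 95% interval of -0.07 to 2.57. Cyp7a1, the rate-limiting enzyme of bile acid synthesis, ran the other way in sign, at 9.25, 10.25, 9.53, 8.29 and 9.81 at 10 mg/kg and 11.29, 8.32, 9.26 and 10.65 at 3 mg/kg. The doses overlapped throughout, both lay above the vehicle range of 6.52 to 8.06, and the step was -0.46 with a 95% interval of -1.60 to 0.69. Noct, a circadian deadenylase, was higher than vehicle by 2.68 at 10 mg/kg, beside 2.38 at 3 mg/kg, with a step of 0.30.

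Among responders that were lower with PFOS, Dio1, the deiodinase that activates thyroid hormone, read 6.48, 8.43, 7.27, 6.87 and 5.78 at 10 mg/kg and 8.10, 7.25, 8.19 and 7.71 at 3 mg/kg. Replicate 2 of the higher dose was the highest of all 9 treated samples and the other 4 mice lay low or within the lower-dose range. Dio1 fell by 2.61 against vehicle at 10 mg/kg (limma adjusted p = 0.00282), while the difference at 3 mg/kg was -1.76 (adjusted p = 0.0517) and that between the doses -0.85. Cyp39a1, an oxysterol hydroxylase of bile acid synthesis, read 6.75, 8.08, 8.08, 7.20 and 6.73 at 10 mg/kg and 8.57, 8.43, 8.12 and 7.85 at 3 mg/kg, a step of -0.87. Flat steps were also measured. The probe set annotated to the small nucleolar RNA gene Snord104 differed from vehicle by -1.20 at both doses. Its step was 0.00, with a 95% interval of -0.30 to 0.31. Serpina12, the adipokine vaspin, had a step of -0.04 with an interval of -0.64 to 0.55. Another set of genes had also been chosen for RT-PCR. Lss of cholesterol synthesis differed from vehicle by 1.09 at 10 mg/kg, beside 1.00 at 3 mg/kg. The complex I subunit Ndufa5 differed from vehicle by -0.79 at 10 mg/kg, beside -0.66 at 3 mg/kg, and all 4 differences passed the adjusted threshold. The steps between the doses were 0.09 for Lss, -0.13 for Ndufa5, -0.09 for Srebf2, -0.31 for Ppargc1a, 0.20 for Nfe2l2 (the gene of NRF2) and -0.15 for Ppara. Gapdh was not read by a retained probe set of 1 gene.

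Genes with the clearest step, taken at p of at most 0.0025 with no overlap between the doses, numbered 31, of which 3 were higher and 28 lower at 10 mg/kg. None of them passed the adjusted threshold (adjusted p = 0.739 for each), and the steps are described as measured. Hspb1, the small heat shock protein HSP27, read 8.91, 8.43, 8.36, 8.31 and 8.66 at 10 mg/kg and 7.63, 8.05, 7.66 and 7.63 at 3 mg/kg. All 5 higher-dose mice lay above all lower-dose samples, by 0.79 on average (1.73-fold; 95% interval 0.37 to 1.21). The vehicle mice, at 7.52, 8.59, 8.22, 8.39 and 8.68, spanned most of both groups. The other higher genes had smaller steps, of 0.31 ± 0.08 for Syp, which encodes synaptophysin, and 0.27 ± 0.07 for Ssr4, a subunit of the translocon-associated complex (SE).

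Slc22a7, the organic anion transporter OAT2 of the hepatocyte membrane, had the largest step of this group. It read 7.98, 9.22, 8.92, 8.90 and 8.76 at 10 mg/kg and 9.38, 9.64, 9.92 and 10.35 at 3 mg/kg, against 9.98 to 10.68 at 0 mg/kg. Every higher-dose mouse lay below every lower-dose sample, with replicate 1 far below the rest, and the lower-dose group reached into the vehicle range. The step was -1.07 ± 0.23 (SE). The difference from vehicle was -1.63 at 10 mg/kg (adjusted p = 0.00134) and -0.56 at 3 mg/kg. Cela1, an elastase, read 8.70, 9.48, 9.74, 9.40 and 9.17 at 10 mg/kg and 9.78, 10.19, 10.46 and 10.33 at 3 mg/kg, against 11.22 to 11.63 at 0 mg/kg. The 3 doses were stepwise apart with no overlap between any of them, and Cela1 fell by 2.09 at 10 mg/kg (limma adjusted p = 3.32e-05) and by 1.20 at 3 mg/kg (adjusted p = 0.00664), with a step of -0.89 ± 0.18 (SE).

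Saa4, the constitutive serum amyloid A of lipoproteins, read 11.19, 11.52, 11.61, 11.55 and 11.01 at 10 mg/kg and 11.85, 12.08, 12.30 and 11.78 at 3 mg/kg, against 11.23 to 11.72 at 0 mg/kg. Here the lower-dose group stood above both the higher dose and vehicle, with a step of -0.63 ± 0.14 (SE). Steps of the same sign were -0.96 for BC023105, -0.82 for Paqr9, -0.75 for Enho, which encodes the peptide adropin, and -0.52 for the linker histone H1f2. BC023105 lay at 7.31, 7.42, 7.32 and 6.75 at the lower dose, where replicate 5 was apart.

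Several interferon-stimulated genes were among the lower genes. Ly6e, an interferon-induced membrane protein that restricts virus entry, read 10.96, 10.98, 10.98, 10.98 and 10.75 at 10 mg/kg and 11.52, 11.48, 11.51 and 11.25 at 3 mg/kg, against 11.52 to 11.85 at 0 mg/kg. The 4 first mice at the higher dose differed by hundredths, replicate 5 was lowest at both doses, and the groups were clear of each other. The step of -0.51 ± 0.09 (SE) had the smallest p of these genes. Against vehicle, Ly6e fell by 0.76 at 10 mg/kg (adjusted p = 0.000374) while the difference at 3 mg/kg was -0.25 (adjusted p = 0.168). Gbp6, a guanylate-binding GTPase of cell-autonomous defence, read 4.77, 5.56, 5.45, 5.66 and 5.67 at 10 mg/kg and 6.79, 6.22, 5.88 and 6.31 at 3 mg/kg. The groups did not overlap, replicate 1 was the lowest, and the step was -0.88 ± 0.22 (SE), though the higher-dose values lay near or below the median of all signals, which makes its size uncertain. Ifi27 read 9.50, 9.87, 10.04, 9.68 and 9.86 at 10 mg/kg and 10.50, 10.41, 10.16 and 10.21 at 3 mg/kg, against 10.64 to 11.18 at 0 mg/kg, so that it was stepwise lower. Irf9, an interferon regulatory factor, read 7.26, 7.37, 7.36, 7.39 and 7.22 at 10 mg/kg and 7.81, 7.82, 7.56 and 7.61 at 3 mg/kg, without overlap and with a step of -0.38 ± 0.09 (SE).

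**Figure D2:**
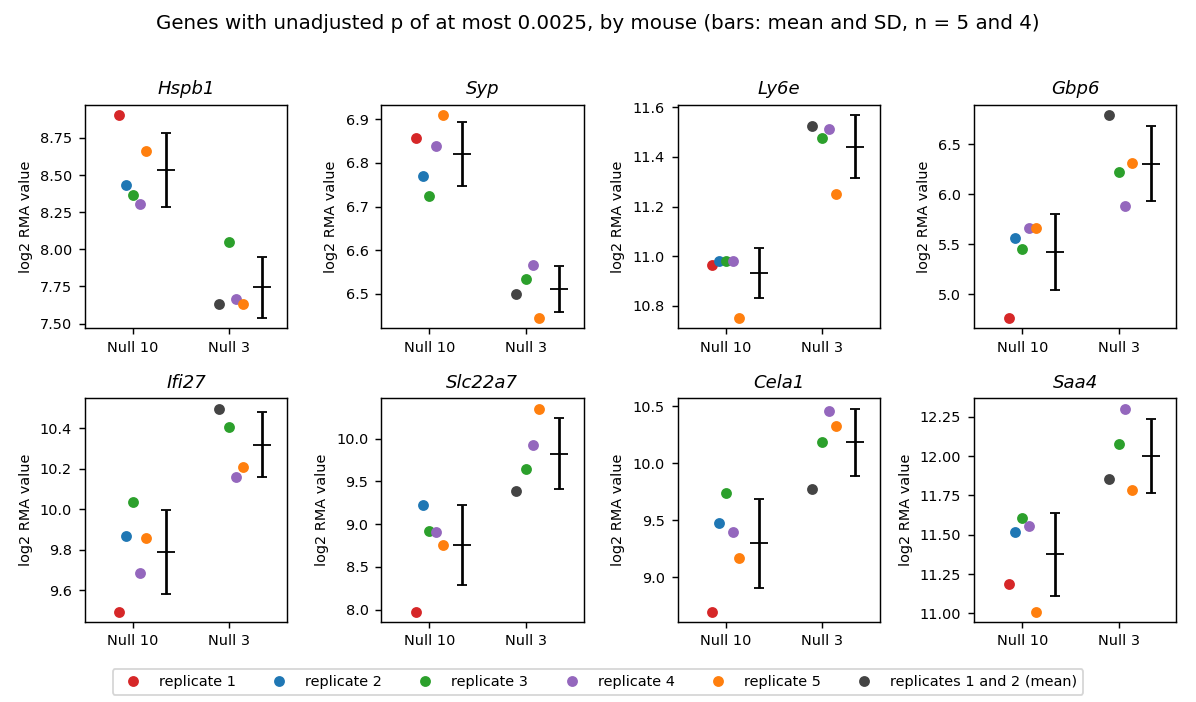
Log2 RMA values of 8 genes with a clear step in Null liver, 1 point per mouse, at 10 mg/kg and 3 mg/kg PFOS (bars are the mean and SD, n = 5 and 4; the dark point is the mean of Null 3 mg/kg replicates 1 and 2). Hspb1 and Syp lie higher and Ly6e, Gbp6, Ifi27, Slc22a7, Cela1 and Saa4 lower at 10 mg/kg, with no overlap between the doses.

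The list of interferon-stimulated genes was drawn up after values had been seen, so its count describes the data and is no independent evidence. Of its 50 measured genes, 13 were lower at an unadjusted p under 0.05 and 0 were higher, against 5.31% lower and 3.39% higher among all genes. The median step of the list was -0.25, beside 0.007 for all genes, and 47 of 50 were lower in sign. Its mean by mouse was 7.56, 7.78, 7.92, 7.93 and 7.91 at 10 mg/kg and 8.23, 8.03, 8.03 and 8.03 at 3 mg/kg, against 8.03 to 8.27 at 0 mg/kg. The dose groups did not overlap, replicate 1 was lowest, and the lower dose overlapped the vehicle range. The median difference from vehicle was -0.29 at 10 mg/kg, with 13 genes called lower, and -0.06 at 3 mg/kg, with 1 called lower. Among all genes, 4.79% and 1.58% were called lower. Without replicate 1, 12 genes were lower at this p with a median of -0.20, and over all single omissions the count ran from 9 (without the mean of Null 3 mg/kg replicates 1 and 2) to 21 (without Null 10 mg/kg replicate 3). It was 28 with those Null 3 mg/kg arrays kept as 2 samples. Besides those above, the step was -0.55 for Stat2, -0.43 for Gbp3, -0.40 for the antiviral membrane protein Ifitm3 and -0.37 for Parp14.

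Promoters of 3 such genes are shown because they carry a motif of the interferon-stimulated response element. The motif searched was GAAA, any 2 bases and GAAA again, on both strands in the 250 bases before and 50 after each gene start (RefSeq, GRCm38.p6), and capitals mark its matches, which can overlap. It was found in 3.99% of all 27025 genes with an entry and in 19 of the 37 interferon-stimulated genes with an entry (51.4%). Of those lower at p under 0.05, 3 of 7 with an entry held it. A match describes the sequence and does not show binding.
Gbp3 (chr3:142559959-142560054, plus strand): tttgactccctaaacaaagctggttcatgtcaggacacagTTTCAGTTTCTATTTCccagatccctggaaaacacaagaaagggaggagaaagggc
Ifitm3 (chr7:141010695-141010782, minus strand): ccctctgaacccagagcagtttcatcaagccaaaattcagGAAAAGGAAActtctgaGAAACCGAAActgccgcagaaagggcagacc
Stat2 (chr10:128270248-128270325, plus strand): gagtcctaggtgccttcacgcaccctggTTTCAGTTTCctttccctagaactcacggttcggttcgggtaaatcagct

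Macrophage genes also had negative steps. The median step was -0.17 over 19 measured markers of Kupffer cells, the resident macrophages of the liver. At p under 0.05, 5 were lower and none was higher, against 5.31% and 3.39% of all genes. The count was 10 without Null 10 mg/kg replicate 3, and 1 without Null 10 mg/kg replicate 1 and Null 3 mg/kg replicate 4 together. The mean of the list was 8.31, 8.31, 8.79, 8.29 and 8.11 at 10 mg/kg and 8.54, 8.51, 8.80 and 8.56 at 3 mg/kg, which overlap, and replicate 3 of the higher dose was as high as any lower-dose sample but 1. Marco, a scavenger receptor of macrophages, read 5.73, 5.56, 5.73, 5.88 and 5.58 at 10 mg/kg and 6.29, 6.16, 8.87 and 6.61 at 3 mg/kg, with replicate 4 of the lower dose far above the rest. The higher-dose values of Marco lay near or below the median of all signals, so that the size of its difference is uncertain. In bulk tissue, fewer cells of a type and less RNA per cell cannot be told apart. Hepatocyte markers had a median step of -0.01, with 3 of 15 lower at p under 0.05, and the part of cell composition in the list results was not tested.

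Targets of NRF2 showed the largest positive step of any list. Of 30 measured, 11 were higher and 0 lower at an unadjusted p under 0.05, against 3.39% and 5.31% of all genes. The median step was 0.31. Srxn1, which repairs oxidised peroxiredoxins, read 9.43, 9.42, 7.76, 8.25 and 9.04 at 10 mg/kg and 7.83, 8.06, 7.73 and 7.93 at 3 mg/kg. Replicates 1, 2 and 5 were high and replicate 3 lay at the level of the lower dose, so that the groups overlapped. The step was 0.90 ± 0.28 (SE). The difference from vehicle at 10 mg/kg was 1.29 (adjusted p = 0.0113). Cbr3, a carbonyl reductase, read 8.23, 7.51, 5.97, 5.60 and 6.97 at 10 mg/kg and 5.66, 5.63, 5.71 and 5.82 at 3 mg/kg. The same 3 mice were high, and the other samples lay near the median of all signals. Nqo1, a quinone reductase, read 8.34, 8.04, 7.11, 7.29 and 7.75 at 10 mg/kg and 7.39, 7.32, 6.53 and 6.97 at 3 mg/kg, a step of 0.66 ± 0.22 (SE). Against vehicle, 14 of the 30 NRF2 targets were called higher at 10 mg/kg and 2 at 3 mg/kg, beside 4.02% and 0.93% of all genes. The count between the doses depended on single mice, from 4 without Null 3 mg/kg replicate 4 to 19 without Null 10 mg/kg replicate 4, and was 7 without Null 10 mg/kg replicate 1.

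CAR targets ran beside them, with a median step of 0.15. At p under 0.05, 7 of 32 were higher and 0 lower, against 3.39% and 5.31% of all genes. Gstm1, Gstm2, Abcc3 and Abcc4 stand in both lists. Gstm2, a glutathione transferase, read 12.58, 12.40, 11.01, 11.30 and 12.29 at 10 mg/kg and 11.14, 11.48, 10.86 and 11.29 at 3 mg/kg. Gadd45b, a coactivator of CAR in mouse liver, read 7.87, 8.04, 6.90, 6.91 and 7.80 at 10 mg/kg and 6.66, 6.98, 7.08 and 6.36 at 3 mg/kg. In both genes replicates 1, 2 and 5 of the higher dose lay above every lower-dose sample and replicates 3 and 4 among them. Against vehicle, 20 CAR targets were called higher and 1 lower at 10 mg/kg, and 5 were called higher at 3 mg/kg, beside the same 4.02% and 0.93% of all genes. Without Null 10 mg/kg replicate 1, 3 were higher between the doses at p under 0.05, and over all single omissions the count ran from 1 (without Null 3 mg/kg replicate 4) to 13 (without Null 10 mg/kg replicate 3).

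Proteasome subunits were the other list with many higher members. The median step over 32 measured was 0.17. At p under 0.05, 10 were higher and 0 lower, against 3.39% and 5.31% of all genes. The count ran from 4 without Null 3 mg/kg replicate 4 to 19 without Null 3 mg/kg replicate 3. Psmd4, a ubiquitin receptor of the proteasome cap, read 11.73, 11.79, 11.44, 11.63 and 11.55 at 10 mg/kg and 11.23, 11.49, 11.14 and 11.42 at 3 mg/kg. Replicate 3 of the higher dose lay below 1 lower-dose sample and all others above, and the step was 0.31. Psmb1, a core subunit, was 0.23 higher with no overlap. Known PPARα targets had 1 of 46 higher (2.17%), the carnitine transporter Slc22a5 (0.41), and 0 lower, with 8 higher without Null 10 mg/kg replicate 3.

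Genes of secreted plasma proteins had negative steps. Of 37 complement and coagulation genes, 15 were lower and 0 higher at p under 0.05, against 5.31% and 3.39% of all genes. In sign, 36 of 37 were lower, and the median step was -0.17. Mbl1, a mannose-binding lectin, read 10.65, 11.02, 10.78, 11.03 and 10.72 at 10 mg/kg and 11.04, 11.17, 11.56 and 11.27 at 3 mg/kg. The groups just failed to overlap, with a step of -0.42 ± 0.11 (SE). Hc, complement C5, read 12.59, 12.88, 13.11, 13.07 and 12.84 at 10 mg/kg and 13.21, 13.28, 13.17 and 13.19 at 3 mg/kg, likewise without overlap. The list's mean was 12.03, 12.15, 12.27, 12.26 and 12.09 at 10 mg/kg, 12.30, 12.31, 12.36 and 12.34 at 3 mg/kg and 12.21 to 12.28 at 0 mg/kg. Every higher-dose mouse was below every lower-dose sample, and the lower dose was above vehicle. Without replicate 1, 9 of the 37 were lower at this p.

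Acute-phase genes had the most negative median, -0.37. At p under 0.05, 9 of 28 were lower and 0 higher, against 5.31% and 3.39% of all genes. The list's median difference from vehicle was 0.07 at 10 mg/kg, beside 0.45 at 3 mg/kg. Socs3, the feedback inhibitor of interleukin 6 signalling, read 7.14, 6.29, 6.27, 6.90 and 6.35 at 10 mg/kg and 7.59, 7.92, 8.65 and 6.97 at 3 mg/kg. Replicate 1 of the higher dose lay above replicate 5 of the lower dose and no other pair crossed, and the step was -1.19 ± 0.41 (SE). Lrg1 (-0.84) and the orosomucoids Orm2 (-1.17) and Orm1 (-0.37) were also lower. The count of 9 ran from 2 without Null 3 mg/kg replicate 4 to 18 without Null 10 mg/kg replicate 4, in each case the mouse with the highest acute-phase mean of its group.

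Other lists held fewer such members, and their counts moved with single samples, as from 1 to 6 for cholesterol synthesis (without Null 10 mg/kg replicates 1 and 4 in turn) and from 1 to 11 for ribosomal proteins (without Null 10 mg/kg replicate 2 and Null 3 mg/kg replicate 3 in turn). Among all genes, 5.31% were lower and 3.39% higher at an unadjusted p under 0.05. Cholesterol synthesis had 3 of 22 lower, including Hmgcs1 at 9.68, 10.46, 10.41, 11.48 and 9.83 at 10 mg/kg and 11.27, 10.83, 11.16 and 10.71 at 3 mg/kg. Of its 22 genes, 15 were called higher than vehicle at 10 mg/kg and 17 at 3 mg/kg, beside 4.02% and 0.93% of all genes. Oxidative phosphorylation had 1 of 70 lower and a median step of 0.03. Against vehicle, 40 of its genes were called lower at 10 mg/kg and 27 at 3 mg/kg, beside 4.79% and 1.58% of all genes. Cytosolic ribosomal proteins had 4 of 43 higher, and clock genes had 0 of 18 in either direction. Thyroid hormone genes had 3 of 14 lower, among them Klf9, a target of the thyroid hormone receptor, at 5.24, 6.19, 6.29, 6.01 and 5.85 at 10 mg/kg and 6.53, 6.92, 6.27 and 6.44 at 3 mg/kg. Bile acid genes had 2 of 24 lower (8.33%). Bile duct markers, of which 4 of 12 were measured, stood out in 1 mouse. Their mean was 6.74 in Null 10 mg/kg replicate 1 and 5.79 to 6.14 in the other 4 mice. Among them, Krt23 read 7.33 in that mouse and 4.64 to 5.64 in the others by its probe set of highest mean. How far the list mean rests on this gene was not tested. Stellate cell and fibroblast markers averaged 8.76 in replicate 3 of the same group and 7.97 to 8.15 in the others.

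**Figure D3:**
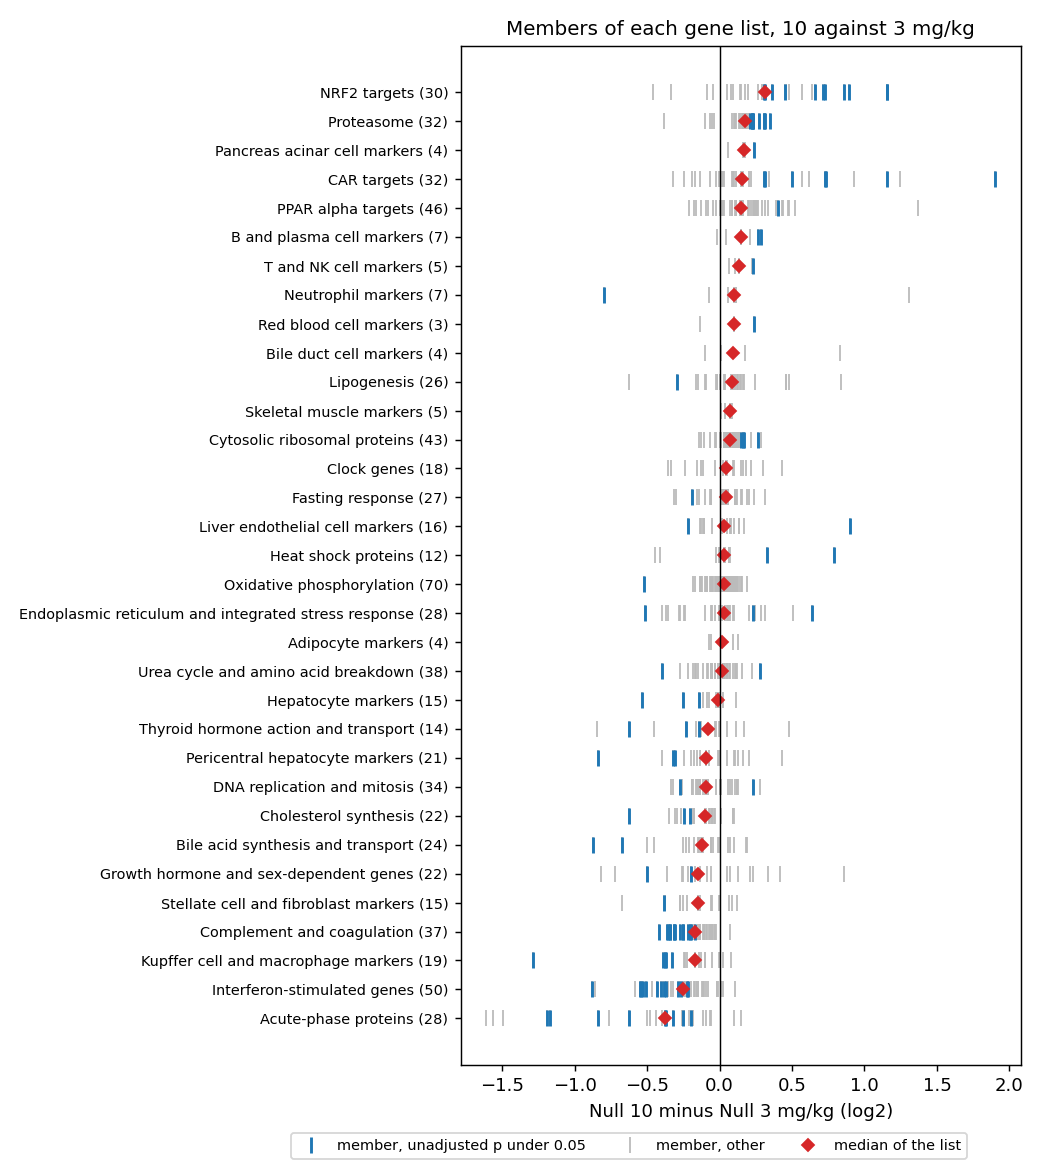
Difference between Null 10 and Null 3 mg/kg in log2 units (x axis) for every measured member of 33 gene lists (rows, with the number measured), where blue marks are members at an unadjusted limma p under 0.05, grey marks the others and red diamonds the list medians. NRF2 targets have the highest median (0.31) and acute-phase proteins the lowest (-0.37).

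The same lists by mouse showed where the groups split. NRF2 targets averaged 11.36, 11.26, 10.64, 10.52 and 11.13 at 10 mg/kg, 10.66, 10.86, 10.28 and 10.65 at 3 mg/kg and 10.29 to 10.53 at 0 mg/kg. Replicates 1, 2 and 5 lay above every lower-dose sample, while replicates 3 and 4 did not. CAR targets averaged 11.67, 11.72, 11.26, 11.21 and 11.66 at 10 mg/kg, 11.34, 11.49, 10.75 and 11.22 at 3 mg/kg and 10.61 to 10.74 at 0 mg/kg. Both PFOS doses were clear of vehicle, and the same 3 mice were highest. Acute-phase genes averaged 11.34, 11.77, 11.82, 12.45 and 11.11 at 10 mg/kg, 11.84, 11.87, 12.75 and 12.21 at 3 mg/kg and 11.33 to 11.74 at 0 mg/kg. Replicates 1 and 5 were lowest and replicate 4 was highest at the higher dose.

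**Figure D4:**
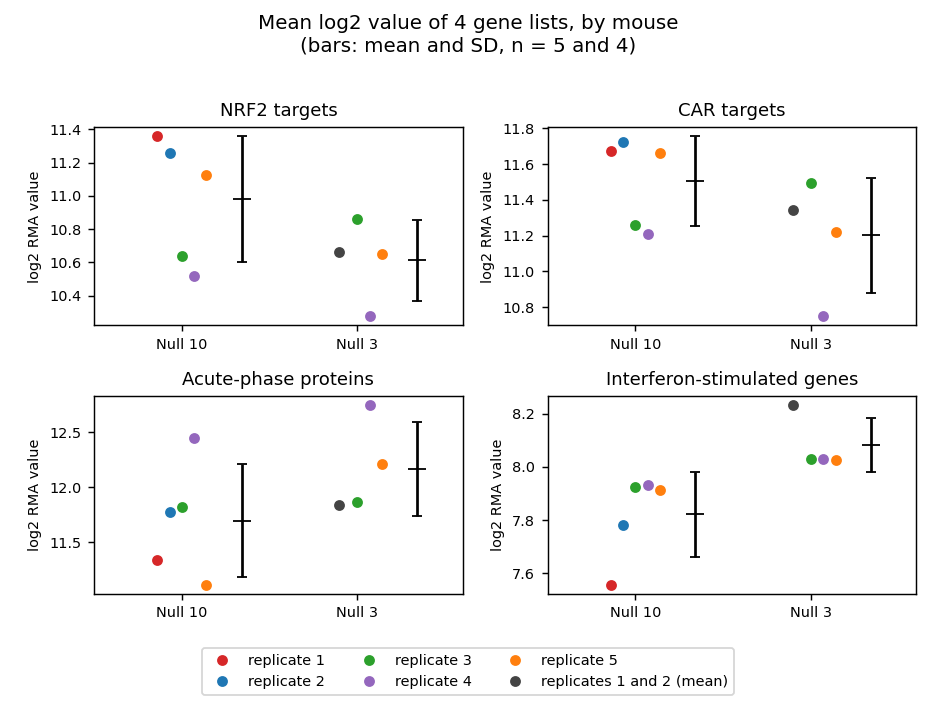
Mean log2 RMA value of the measured members of 4 gene lists in Null liver, 1 point per mouse, at 10 and 3 mg/kg PFOS (bars are the mean and SD, n = 5 and 4; the dark point is the mean of Null 3 mg/kg replicates 1 and 2). NRF2 and CAR targets are high in replicates 1, 2 and 5 of the higher dose, acute-phase genes are high in replicate 4, and interferon-stimulated genes do not overlap between the doses.

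The spread between mice was wider at 10 mg/kg. The median standard deviation of a gene was 0.175 at 10 mg/kg, 0.127 at 3 mg/kg and 0.118 at 0 mg/kg. It was higher at 10 than at 3 mg/kg for 8477 genes (69.7%), and for 7035 genes (57.9%) once replicate 1 was left out, when the median at 10 mg/kg was 0.145. It was at least 2 times as high for 3592 genes (29.5%), and the reverse held for 624 (5.13%). A standard deviation above 1 was reached by 47 genes at 10 mg/kg, 23 at 3 mg/kg and 17 at 0 mg/kg. In a limma test of the absolute deviations from the group mean, 0 genes passed an adjusted p of 0.05 (0%). At an unadjusted p under 0.05, 1218 genes (10%) were wider and 227 (1.87%) narrower at 10 mg/kg.

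Acute-phase genes were among the genes that spread most at 10 mg/kg. Saa2, a serum amyloid A that inflammation induces, read 8.56, 12.51, 12.10, 14.31 and 8.47 at 10 mg/kg, a 57.2-fold range, and 11.68, 11.38, 14.17 and 13.79 at 3 mg/kg. Lcn2, the iron-siderophore binder lipocalin 2, read 7.70, 9.45, 9.89, 13.47 and 7.01 at 10 mg/kg and 9.37, 9.80, 13.06 and 12.22 at 3 mg/kg. Both genes were lowest in replicates 1 and 5 and highest in replicate 4 of the higher dose, and the standard deviations were 2.58 and 2.52 there, beside 1.43 and 1.80 at 3 mg/kg. Saa1 lay at 10.29, 13.18, 13.13, 13.81 and 10.26 at 10 mg/kg and at 13.02, 12.72, 13.78 and 13.65 at 3 mg/kg. The hepatokine Fgl1 lay at 10.11, 11.39, 11.32, 13.34 and 9.69 at 10 mg/kg and at 11.90, 12.47, 13.43 and 12.61 at 3 mg/kg. Saa3 was different in that its spread was wider at the lower dose (2.46, beside 1.41), where replicate 4 read 13.84 and the others 8.68 to 9.24. The Saa2 probe set is of a type that may also read other Saa genes.

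The serum amyloid promoters are shown because they hold a match to a motif of C/EBP factors, which drive acute-phase transcription. As above, a match does not show binding. Capitals mark TTGC, any 2 bases and AA, searched on both strands in the same RefSeq windows. It was found in 12.2% of all genes and in 13 of the 24 acute-phase genes with an entry (54.2%). The stretches of Saa1 and Saa2 share 82 of 88 bases (93.2%).
Saa1 (chr7:46743115-46743202, minus strand): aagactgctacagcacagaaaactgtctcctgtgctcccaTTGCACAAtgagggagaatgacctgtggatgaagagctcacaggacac
Saa2 (chr7:46751610-46751697, plus strand): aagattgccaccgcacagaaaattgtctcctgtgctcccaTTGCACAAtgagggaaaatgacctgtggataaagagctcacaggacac
Saa3 (chr7:46715728-46715815, minus strand): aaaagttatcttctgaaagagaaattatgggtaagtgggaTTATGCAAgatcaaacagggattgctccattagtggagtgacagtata

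Members of the CAR list were also among the genes that spread most. The list as a whole was not wider at 10 mg/kg, with a median standard deviation of 0.272, beside 0.320 at 3 mg/kg. It was higher at 10 mg/kg for 15 of 32 members (46.9%), against 69.7% of all genes. Cyp2c65, a P450 of the same family as Cyp2c55, read 9.17, 8.97, 5.62, 5.69 and 9.08 at 10 mg/kg and 5.70, 7.27, 4.65 and 5.59 at 3 mg/kg, against 4.29 to 4.92 at 0 mg/kg. Abcc4, an export pump for conjugates and bile acids, read 9.09, 7.90, 6.19, 6.11 and 7.36 at 10 mg/kg and 6.25, 6.63, 5.66 and 6.15 at 3 mg/kg. In both, replicates 1, 2 and 5 of the higher dose lay above every lower-dose sample and replicates 3 and 4 did not. Cyp4a14, a fatty acid hydroxylase known as a PPARα target, read 10.53, 9.45, 7.40, 7.45 and 9.24 at 10 mg/kg and 7.90, 7.25, 6.90 and 7.74 at 3 mg/kg. Its vehicle values of 5.83, 9.19, 5.78, 12.20 and 5.33 spread more than either PFOS group. S100a8, a calcium-binding protein abundant in neutrophils, read 9.94, 10.38, 6.09, 6.03 and 9.87 at 10 mg/kg and 5.82, 8.99, 7.63 and 6.18 at 3 mg/kg. The same division appeared, but its partner S100a9 read only 5.30, 5.76, 5.37, 5.41 and 5.37 at 10 mg/kg, near the array median, and 5.88, 6.17, 7.17 and 5.73 at 3 mg/kg.

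Single mice set the spread of several other genes. Iigp1, an immunity-related GTPase, read 8.42 in replicate 1 and 11.32 to 11.68 in the other mice at 10 mg/kg, and 11.46 to 11.98 at 3 mg/kg. Hao2, a peroxisomal hydroxyacid oxidase, read 7.68 in replicate 1 and 4.03 to 4.93 in the others at 10 mg/kg, and 4.47 to 5.30 at 3 mg/kg. Without replicate 1 the standard deviation at 10 mg/kg was 0.168 for Iigp1, beside 1.41 with it, and 0.386 for Hao2, beside 1.42. In replicate 4, Rgs16, a regulator of G protein signalling, was at 5.63 while the other mice lay at 9.78 to 10.34, and Elovl3, a fatty acid elongase, at 7.87 while the others lay at 10.50 to 10.68. Derl3, of endoplasmic reticulum protein disposal, was at 9.98 in the same mouse and at 6.77 to 7.43 in the others, and Cyb561 at 7.81 against 4.64 to 5.35. The transcription factor Zbtb16 read 9.72, 9.56, 6.65, 7.42 and 6.41 at 10 mg/kg and 9.67, 10.04, 7.33 and 6.47 at 3 mg/kg, with high and low mice at both doses. Of the 40 genes with the largest standard deviation at 10 mg/kg, replicate 4 was the highest mouse for 17 and replicate 1 the lowest for 13.

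**Figure D5:**
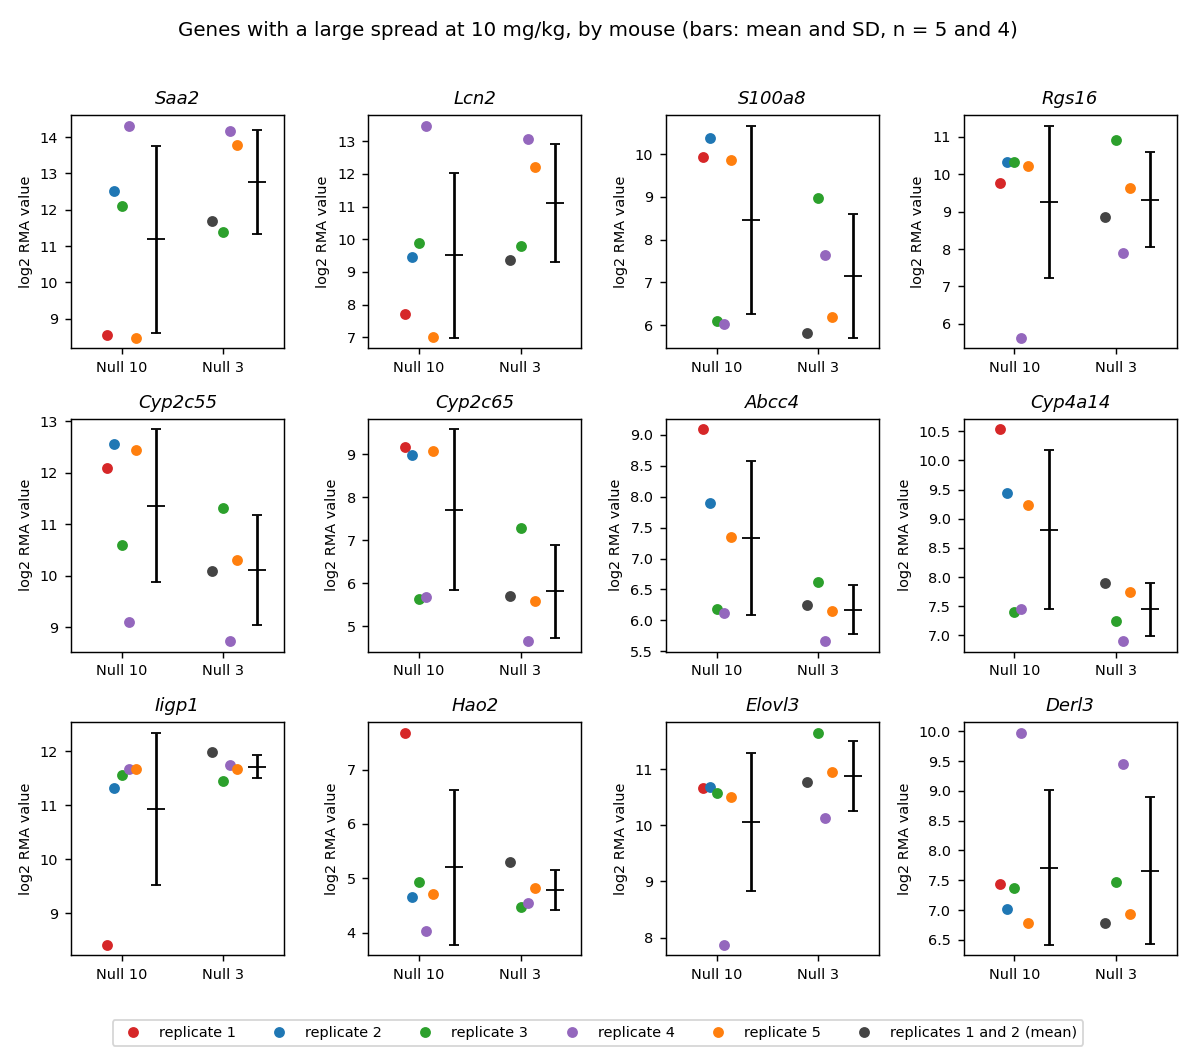
Log2 RMA values in Null liver of 12 of the genes with the largest standard deviation at 10 mg/kg, 1 point per mouse, at 10 and 3 mg/kg PFOS (bars are the mean and SD, n = 5 and 4; the dark point is the mean of Null 3 mg/kg replicates 1 and 2). Colours follow the replicate, so that replicates 1 and 5 are low for Saa2 and Lcn2, replicates 1, 2 and 5 are high for Cyp2c65 and Abcc4, and a single mouse sets Iigp1, Hao2 and Elovl3.

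Lists differed in how many members were among the 200 genes of largest standard deviation at 10 mg/kg, which hold 1.65% of all genes. Growth hormone and sex-dependent genes had 8 of 22 (36.4%), acute-phase genes 6 (21.4%), NRF2 targets 6 (20%) and CAR targets 5 (15.6%). These counts include Null 10 mg/kg replicate 1. Leaving it out took the growth hormone list's median standard deviation from 0.363 to 0.279, and that of all genes from 0.175 to 0.145. Acute-phase genes moved from 0.328 to 0.343, NRF2 targets from 0.357 to 0.319 and CAR targets from 0.272 to 0.225. The growth hormone list also exceeded all genes in the other Null groups. Its medians were 0.265 against 0.127 with 3 mg/kg and 0.218 against 0.118 with vehicle. Among the genes with the smallest p for a wider spread, Srxn1 read 10.91, 10.97, 9.27, 9.84 and 10.81 at 10 mg/kg by the probe set of highest mean, and 9.43, 9.55, 9.22 and 9.52 at 3 mg/kg. The standard deviation was 0.77 at 10 mg/kg, beside 0.15 at 3 mg/kg (limma adjusted p = 0.297). Vcam1, the leukocyte adhesion molecule of endothelium, read 7.88, 7.15, 8.10, 7.27 and 7.08 at 10 mg/kg and 7.25 to 7.52 at 3 mg/kg. On the narrower side, Dnajc12, a cochaperone, read 8.91 to 9.12 at 10 mg/kg and 8.91, 9.10, 10.58 and 9.10 at 3 mg/kg, where replicate 4 alone was high.

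More genes differed between the same doses in WT liver. Between WT 10 and WT 3 mg/kg, 866 genes (7.12%) passed an adjusted p of 0.05, 470 higher (3.87%) and 396 lower (3.26%), and 843 (6.93%) had an unadjusted p of at most 0.0025, against 0 and 40 in Null liver. The WT comparison had 5 samples at each dose and the Null comparison 5 and 4, in separate fits. Without the 2 doubted arrays labelled WT 0 mg/kg, the WT counts were 1789 and 1277. The difference between the steps was tested gene by gene. It passed for 20 genes (0.165%), each with a more negative step in Null liver, and for 47 genes when the 2 doubted arrays labelled WT 0 mg/kg were left out. At an unadjusted p under 0.05 there were 913 genes (7.51%). Mogat1, a monoacylglycerol acyltransferase of fat synthesis, had a step of -0.01 in Null liver and 2.14 in WT liver (difference -2.16 ± 0.35, SE; limma adjusted p = 0.00378). Its Null means of 5.01 at 10 mg/kg and 5.02 at 3 mg/kg were near background, so that a Null step cannot be read. In WT liver it read 9.04, 9.21, 7.86, 8.02 and 8.86 at 10 mg/kg and 6.46, 5.49, 7.05, 6.74 and 6.54 at 3 mg/kg, without overlap. The other named genes were Csf2rb, a cytokine receptor chain, with -0.08 in Null and 2.07 in WT liver, the ubiquitin-conjugating enzyme Ube2c of mitosis with -0.34 in Null and 1.80 in WT liver, Amn with 0.43 in Null and 2.34 in WT liver, and the phospholipid transfer protein Pltp with -0.30 in Null and 1.29 in WT liver. The Null means of Amn, 5.40 at 10 mg/kg and 4.98 at 3 mg/kg, were near background too, and its Null step is not read. At 3 mg/kg in WT liver, Ube2c and Amn both averaged 5.39, near background as well. The sizes of their WT steps, and of their differences between genotypes, are therefore uncertain. All 5 named genes kept their sign and passed the adjusted threshold without the doubted arrays.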

How the data were processed

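Total RNA from the left liver lobe was hybridised to Affymetrix whole-genome mouse arrays by the authors, 1 array per mouse by the sample labels. The deposited values are log2 signals that the authors background-adjusted, quantile-normalised and summarised by RMA, so that array medians lay between 5.60 and 5.70. Quantile normalisation sets every array to the same distribution, so that a shift shared by most genes cannot be seen. Labelling and hybridisation were run as 1 block, and the number of arrays limits the precision.

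A probe set was retained when 5 or more arrays exceeded the overall median signal (5.65), which left 24069 of 45101. Of all probe sets 34958 had 1 gene in the annotation, 932 several and 9211 none, and only those of 1 gene were named. Null 3 mg/kg replicates 1 and 2 were averaged, which left 14 Null samples. limma 3.58.1 (R 4.3.3; lmFit, eBayes) was fitted over all Null samples with dose as a factor, and for the comparison of genotypes over all 29 samples. The Benjamini-Hochberg adjustment ran over every retained probe set. Each gene took its probe set with the smallest p over dose in Null liver, and for the spread that of highest mean; both choices agreed for 9173 of 12156 genes. That smallest p uses the Null arrays and raises counts at an unadjusted p (40 genes at 0.0025, against 26 with the probe set of highest mean). The spread was tested with limma on absolute deviations scaled for group size.

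Genes named were the largest steps at p of at most 0.0025 with no overlap (10 in each direction), the 20 of largest standard deviation at 10 mg/kg, the 3 of smallest p in each list, the study's RT-PCR genes, the 10 largest responders in each direction, the 5 of smallest p for a wider and for a narrower spread, and the 5 largest genotype differences. Further list members, and S100a9 beside S100a8, were named after their values were seen. The comparison, the genes and the 33 lists were chosen with earlier results of these data known. Alternatives covered the filter, the probe set rule, array weights, the samples fitted, a replicate block, the methods' t-test and each sample left out. The statistics were tested on simulated data. Replicate numbers did not pair the samples (correlations of deviations -0.11 to 0.23). Promoter sequences and symbols came from RefSeq.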

Additional observations from a re-analysis of the deposited data

Results flagged for a closer look

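Each group of 4 or 5 samples was checked for a mouse whose gap to its nearest neighbour took up more of the group's range than Dixon's 95% limit for its size. Chance flags about 1 in 20 groups of genes not chosen for their spread. Here 14 of 140 groups over 65 genes passed, but many of these genes were named for their spread, so that this rate does not apply to them. At 10 mg/kg in Null liver, replicate 1 lay apart for Gbp6 (gap 0.7604 of the range), Hao2 (0.7533) and Iigp1 (0.8901), replicate 2 for Noct (0.7529), replicate 4 for Rgs16 (0.8804), Derl3 (0.7946), Cyb561 (0.7758) and Elovl3 (0.9383), and replicate 5 for Ly6e (0.9254). At 3 mg/kg, replicate 3 lay apart for Hspb1 (0.9232), at 8.05 beside 7.63 to 7.66, replicate 4 for Saa3 (0.8913) and Dnajc12 (0.8855), and replicate 5 for BC023105 (0.8373) and Ly6e (0.8304).

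The 10 minus 3 mg/kg step differed between Null and WT liver, by the limma test of that difference, for Mogat1 (-2.16), Csf2rb (-2.15), Ube2c (-2.14), Amn (-1.91) and Pltp (-1.59). Null means of Mogat1 and Amn, and WT 3 mg/kg means of Ube2c and Amn, were near background.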

How the results depend on the processing

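No gene passed the adjusted threshold between Null 10 and Null 3 mg/kg with any 1 sample left out (0 to 0) or under any other alternative, nor did any of the 128 named genes (2684 values, of which 28 turned in sign; lowest adjusted p 0.314), and the 13 step genes kept their sign in all 273. The 40 genes at p of at most 0.0025 became 9 with a fold change of at least 1.5, 70 with no filter, 21 with the 10 compared arrays alone, 26 with the probe set of highest mean, 23 without cross-hybridising probe sets, 62 with the arrays as deposited and 20 (without Null 10 mg/kg replicate 5) to 118 (without replicate 3; 116 without replicate 4). The 1263 responding genes became 2360 with array weights and 608 (without Null 0 mg/kg replicate 4) to 1712 (without Null 10 mg/kg replicate 1), with 709, 763 and 774 without Null 0 mg/kg replicates 2, 3 and 5. The share with a larger response at 10 mg/kg, 64.6%, ran from 55.2 to 69.8, and that of the 2-fold responders, 72.3%, from 55.8 to 83.9. The spread test, with 0 called, gave 1 gene with the probe set of smallest p, 43 with squared deviations on a log scale, 7 without Null 10 mg/kg replicate 1 and Null 3 mg/kg replicate 4, and 0 to 8 with 1 sample left out. The 1218 wider genes ran from 847 (without Null 10 mg/kg replicate 1) to 1943 (without replicate 2), and the 69.7% with a higher standard deviation from 57.9 to 77.9. The 20 genotype differences became 47 without the 2 doubted arrays labelled WT 0 mg/kg (the WT counts of 866 and 843 became 1789 and 1277), and 11 (without Null 3 mg/kg replicate 5 or WT 10 mg/kg replicate 2) to 23, with 12 without the mean of Null 3 mg/kg replicates 1 and 2 and 13 without WT 10 mg/kg replicate 1 or WT 3 mg/kg replicate 5. The cause of these changes was not tested. With the replicate number as a block, 0 genes were called, 39 passed 0.0025, 948 responded, 67.9% of these and 68.6% of the 2-fold responders were larger at 10 mg/kg, and 17 differed between genotypes. The counts moved by less than 1.5 times. The omission of both apart-lying arrays, the arrays as deposited and the omission of the doubted arrays were chosen after seeing the data.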
